A study of Mus musculus with 2 samples.

Results

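The mir-29 genes of the mouse were measured as 4 of the 1973 miRNA genes listed in microRNA-seq libraries from embryonic midbrain. They were taken by their Ensembl identifiers, matched to GENCODE symbols, as the members of both mir-29 clusters, Mir29a with Mir29b-1 on chromosome 6 and Mir29c with Mir29b-2 on chromosome 1. The rule used names and positions only. All 4 had reads in both libraries, and 3 of them had 10 or more reads in each, the minimum set here for a gene to be called detected and tested. Mir29b-1 missed it by 1 read in replicate 1.

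The libraries were 2 biological replicates of 1 group, midbrain of healthy B6NCrl mouse embryos at embryonic day 16.5. Each was pooled over embryos of both sexes, 37 embryos for replicate 2 and a number not given in the sources used here for replicate 1. Inserts were below 30 nt, the class that holds mature miRNAs. The libraries were whole dissected tissue, so fewer cells of a type and less miRNA per cell cannot be told apart. With 1 stage and 1 group, neither a change with maturation nor any other contrast of conditions could be examined, and the comparisons were those between genes and between the libraries.

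MicroRNAs are cut from hairpin precursors, and 1 arm of the hairpin is loaded into an Argonaute protein. It then pairs with target mRNAs mainly through its seed, the bases from position 2 to position 8 of the mature strand, and lowers their stability and translation. The mir-29 miRNAs are known for repressing mRNAs of collagens and other matrix proteins and of the DNA methyltransferases Dnmt3a and Dnmt3b. In mouse brain they are low in the embryo and accumulate as neurons mature after birth. In mouse neurons they repress pro-apoptotic BH3-only genes, and they are also abundant in astrocytes.

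The 3p arms, which carry the family's activity, are shown because the letters that separate them bear on which reads can be assigned to which gene. Sequences are from RefSeq on GRCm38.p6, 5′ to 3′, with the seed in capitals.
miR-29a-3p (chr6:31062673-31062694, minus strand): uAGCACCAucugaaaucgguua
miR-29b-3p (chr6:31063025-31063047, minus strand, and chr1:195037091-195037113, plus strand): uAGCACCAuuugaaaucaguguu
miR-29c-3p (chr1:195037600-195037621, plus strand): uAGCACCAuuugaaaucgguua

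All 3 mature 3p strands carried the seed AGCACCA, and no other mature miRNA of the RefSeq table did. Counted from 1 at the 5′ end, miR-29a-3p and miR-29c-3p differed by the single substitution C10U, with the base of miR-29a first. From miR-29b-3p to miR-29c-3p there were 3 substitutions, A18G, G21U and U22A, after 17 identical bases. The 23 bases of miR-29b-3p were the same in Mir29b-1 and Mir29b-2, so that strand belonged to 2 genes, whereas miR-29a-3p and miR-29c-3p belonged to 1 gene each. The 5p arms all belonged to 1 gene each, and those of the mir-29b genes shared a run of only 9 bases.

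The hairpins of the mir-29b genes show how far that identity reached. Mature arms are in capitals, the 5p arm first.
Mir29b-1 (chr6:31063023-31063093, minus strand): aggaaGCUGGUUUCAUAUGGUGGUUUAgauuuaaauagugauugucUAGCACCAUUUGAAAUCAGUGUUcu
Mir29b-2 (chr1:195037040-195037120, plus strand): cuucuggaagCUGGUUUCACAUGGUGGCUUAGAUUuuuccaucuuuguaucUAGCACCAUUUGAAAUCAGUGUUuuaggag

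Their longest shared run was 25 bases, ucuagcaccauuugaaaucaguguu, which held the whole 3p arm with only 2 bases more. A miR-29b-3p read of the annotated length lies inside that run and aligns to both genes. A read that belongs to 1 of the genes has to reach past the run or come from elsewhere in the hairpin, such as the 5p arm. Mir29a and Mir29c shared at most 14 bases with each other, and Mir29c shared 22 bases with Mir29b-1 and 19 with Mir29b-2. No hairpin outside the family, of 1001 compared, shared more than 13 bases with any of the 4.

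In the mm10 annotation of GENCODE M21, Mir29a (ENSMUSG00000065610.1, chr6:31062660-31062747, minus strand) lies outside other annotated genes. Mir29b-1 (ENSMUSG00000065604.1) lies 275 bases from it and touches an exon of the lincRNA Gm27019, which spans positions 31063092 to 31063495 on the same strand. On the plus strand of chromosome 1, Mir29b-2 (ENSMUSG00000065412.2) and Mir29c (ENSMUSG00000065548.1, chr1:195037547-195037634) lie 426 bases apart. Both overlap exons of the noncoding transcript A330023F24Rik on their own strand and of Cd46 on the other strand. No opposite-strand read was counted at any mir-29 gene in either library, so the values below are the same on the sense strand and on both strands before scaling.

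Levels are given as CPM, the counts of a gene per 1000000 sense-strand reads on miRNA genes. Those reads numbered 6151299 in replicate 1 and 5312642 in replicate 2. Across all genes 411 of 1973 were detected (20.8%), and their median level was 107.9 CPM.

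Mir29a, the gene of the chromosome 6 cluster with more listed reads, had 1210 reads in replicate 1 and 1303 in replicate 2. That was 197 CPM (95% Wilson interval 186 to 208) in replicate 1 and 245 CPM (232 to 259) in replicate 2, a mean of 221 ± 34.3 CPM (SD, n = 2). Its mean ranked 174 among all genes listed. It stood above 57.7% of the detected genes, a middle place among the gene counts. Reads that mapped to several places were not listed by gene, so this place holds for the listed counts only.

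Mir29c, its counterpart on chromosome 1, had 1119 reads in replicate 1 and 1084 in replicate 2. These were 182 CPM (172 to 193) in replicate 1 and 204 CPM (192 to 217) in replicate 2, with a mean of 193 ± 15.6 CPM (SD, n = 2) and rank 184. The means of Mir29a and Mir29c lay closer together than the SD of Mir29a, though not that of Mir29c, and both genes were measured in the same libraries. Mir29a was the higher of them in each, at 1.08 times the reads of Mir29c in replicate 1 (exact 95% interval 0.996 to 1.17) and 1.20 times in replicate 2 (1.11 to 1.30). Taken within libraries, the log2 ratio of Mir29a over Mir29c averaged 0.19 ± 0.11 (SD, n = 2).

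Mir29b-1 and Mir29b-2, which encode the same 3p strand, stood far lower. Mir29b-1 had 9 reads in replicate 1 and 21 in replicate 2, or 1.46 CPM (0.77 to 2.78) and 3.95 CPM (2.59 to 6.04), with a mean of 2.71 ± 1.76 CPM and rank 391. Mir29b-2 had 13 reads in replicate 1 and 21 in replicate 2, or 2.11 CPM (1.24 to 3.62) and 3.95 CPM (2.59 to 6.04), with a mean of 3.03 ± 1.30 CPM and rank 383. The mir-29b genes did not differ from each other beyond their SD, and both lay below every value of Mir29a and Mir29c. These intervals and those above cover counting error within 1 library only and hold no spread between pools. PCR copies of 1 molecule count as separate reads, so the intervals may be too narrow even for counting error.

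The order of the family was therefore Mir29a, Mir29c, Mir29b-2 and Mir29b-1, in which the gap between Mir29c and Mir29b-2 alone was larger than the SD of each gene. No p-value is given for these gaps, because with 2 values on each side the smallest two-sided p of an exact permutation test is 0.333. Together the 4 genes held 2351 reads in replicate 1 and 2429 in replicate 2, which was 0.0382% (95% Wilson interval 0.0367 to 0.0398) and 0.0457% (0.0439 to 0.0476) of the miRNA reads. Mir29a and Mir29c supplied 99.1% of the family's reads in replicate 1 and 98.3% in replicate 2. Any miR-29b-3p reads counted to neither mir-29b gene are outside these values, so the family's share may be too low and the part of Mir29a and Mir29c too high. By cluster, the chromosome 6 genes summed to 224 ± 36.1 CPM and the chromosome 1 genes to 196 ± 16.9 CPM (SD, n = 2).

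**Figure D1:**
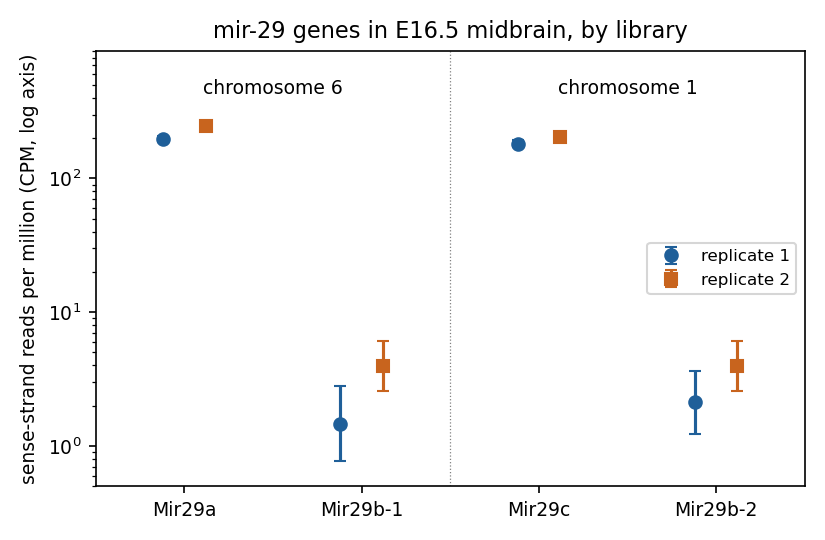
Level of each mir-29 gene in each library, in CPM of sense-strand reads on a log axis, where bars are 95% Wilson intervals of the read counts. Mir29a and Mir29c sit between 182 and 245 CPM in both libraries, and both mir-29b genes sit between 1.46 and 3.95 CPM.

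**Figure D2:**
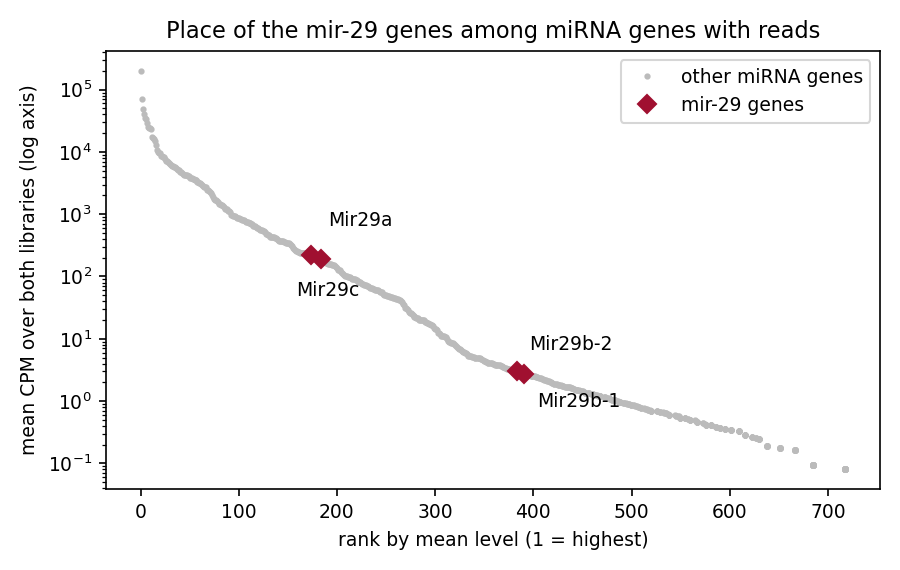
Mean level over both libraries (CPM, log axis) against rank for every miRNA gene with a read, with the mir-29 genes as diamonds. Mir29a and Mir29c stand at ranks 174 and 184, and Mir29b-2 and Mir29b-1 at ranks 383 and 391.

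Within each cluster the partners, which are near neighbours on the same strand, differed widely in reads. Mir29a had 134 times the reads of Mir29b-1 in replicate 1 (exact 95% interval 70.6 to 295) and 62.0 times in replicate 2 (40.4 to 101). Mir29c had 86.1 times the reads of Mir29b-2 in replicate 1 (50.1 to 162) and 51.6 times in replicate 2 (33.6 to 83.7). On the log2 scale the mean gap was 6.51 ± 0.79 on chromosome 6 and 6.06 ± 0.52 on chromosome 1 (SD, n = 2), so the clusters did not differ in this gap beyond the spread of their libraries. The proportion of reads between the partners did not pass a two-sided Fisher's exact test between replicate 1 and replicate 2 in either cluster, with adjusted p = 0.129 for Mir29a and Mir29b-1 and adjusted p = 0.168 for Mir29c and Mir29b-2. The mir-29b reads on which those ratios rest were few. The proportions of the listed reads were known at best to about the width of the intervals above. Any miR-29b-3p reads counted to neither mir-29b gene lie outside these ratios and their intervals, so the gaps may be too wide by an unknown amount.

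The mir-29b counts were set beside those of other genes with a shared arm, as a description. In the tables, 87 genes had a mature arm identical to an arm of another gene in RefSeq, and 829 had none. As a class the genes with a shared arm were not low, with 55.2% detected and a median of 3.29 CPM, against 38.8% and 0.70 CPM for the genes with none. Over detected genes the medians were 198 CPM with a shared arm and 127 CPM without. For 22 genes of the first kind, a detected gene with no shared arm lay within 10000 bases on the same strand, and the nearest was taken as partner. This comparison was devised after the mir-29b counts had been seen, and some genes in it share a partner. Apart from the mir-29b genes, 19 of 20 such genes stood below their partner, with a median difference of -3.47 in log2(CPM + 1) and a range of -11.5 to 0.22. Mir29b-1 stood at -5.98 and Mir29b-2 at -5.62, the sixth and the eighth lowest of the 22. Built the same way, 126 genes with no shared arm had a median difference of -0.39 from their partner, 54.8% were below it, and 15 were as low as Mir29b-2 or lower. Reads that mapped to several places made up 35.3% of all reads in replicate 1 and 36.5% in replicate 2, and they were not listed by gene. The part of shared reads in these differences was not tested, and no value here measures how many of those reads were miR-29b-3p. The counts of Mir29b-1 and Mir29b-2 do not show how abundant miR-29b was.

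**Figure D3:**
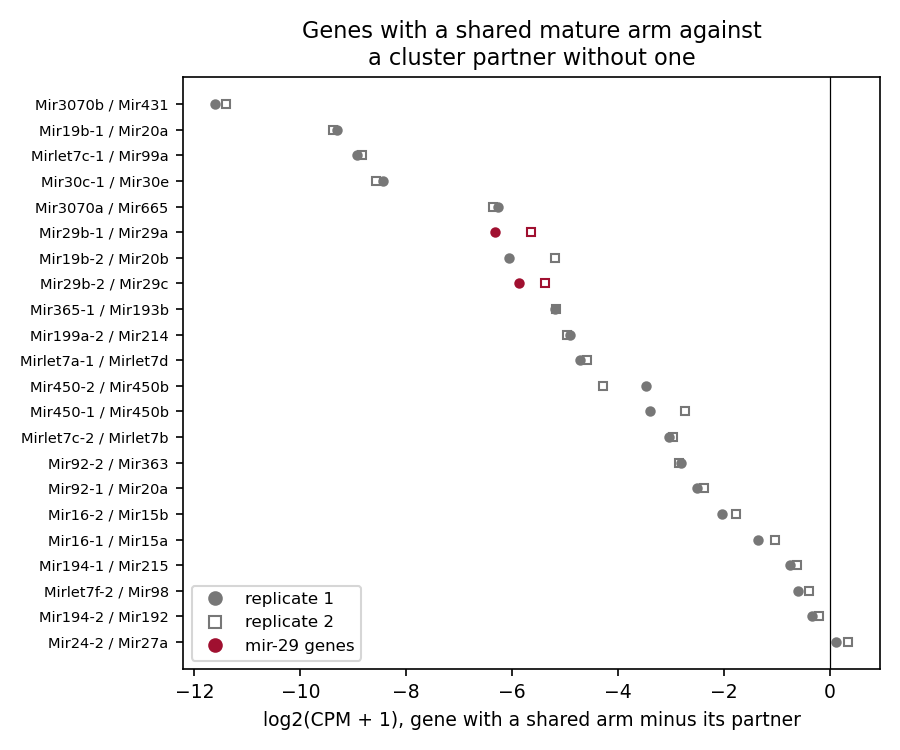
Log2(CPM + 1) of each gene with a shared mature arm minus that of its nearest cluster partner without one, for replicate 1 (filled circles) and replicate 2 (open squares). Mir29b-1 and Mir29b-2 lie between -6.33 and -5.37, and 21 of the 22 genes lie below 0 on average.

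Between the libraries, every mir-29 gene had a lower level in replicate 1 than in replicate 2. Of the 3 that were tested, Mir29a and Mir29c passed the exact binomial test, which compares these libraries and not conditions and covers counting error only. That test passed 47.4% of all 411 genes tested, and 18.2% with a lower level in replicate 1, so a call was common among miRNA genes. Of the genes that passed, 120 were higher and 75 lower in replicate 1, a split that became 95 higher and 90 lower with TMM scaling (trimmed mean of M-values).

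For Mir29a the log2 ratio of replicate 1 over replicate 2 was -0.32 (exact 95% interval -0.43 to -0.20, exact binomial test with Benjamini-Hochberg adjusted p = 1.3e-07). For Mir29c it was -0.17 (-0.29 to -0.04, adjusted p = 0.0162 by the same exact test). Mir29b-2 had a ratio of -0.88 with an interval of -2.02 to 0.16 and did not pass (adjusted p = 0.152, exact binomial test). Mir29b-1 was under the read minimum, and its ratio of -1.39 had an interval of -2.74 to -0.25. The median ratio over all 411 genes was 0.06 with an SD of 0.43, and 27.5% of them had a ratio larger in size than that of Mir29a and 51.8% one larger than that of Mir29c. For the mir-29b genes, with their few reads, that share was 3.41% for Mir29b-2 and 1.46% for Mir29b-1. Among other detected genes within 1 log2 unit of the same level, a ratio larger in size was found in 16 of 72 for Mir29a, 35 of 71 for Mir29c, 5 of 88 for Mir29b-2 and 0 of 81 for Mir29b-1, which was itself under the read minimum that those genes passed.

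With a spread between pools assumed, no mir-29 gene was called. In edgeR's exact test at a fixed biological coefficient of variation (BCV) of 0.2, the 3 tested genes each had an adjusted p of 1, and 1.46% of the 411 genes passed. The unadjusted p was 0.444 for Mir29a, 0.692 for Mir29c and 0.232 for Mir29b-2 in that exact test. The common BCV estimated over both libraries was 17.2%, and the coefficient of variation was 15.5% for Mir29a, 8.11% for Mir29c, 42.9% for Mir29b-2 and 65.0% for Mir29b-1. These coefficients of variation include counting error, which is large for the few mir-29b reads and which the BCV leaves out. They are therefore not to be read against it. With 1 library on each side, the fixed value was set by hand and the common one came from the same differences, so the loss of the calls says nothing about whether the pools differed.

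**Figure D4:**
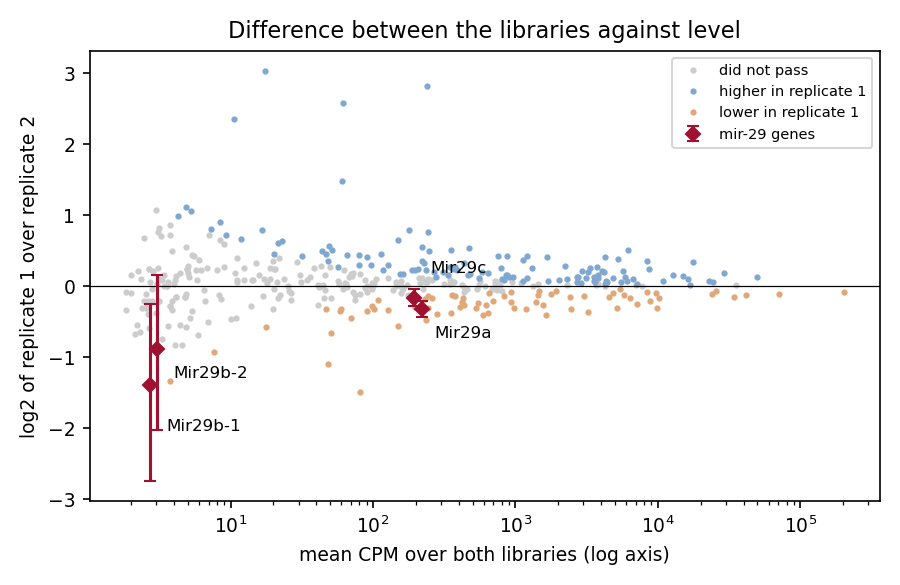
Log2 ratio of replicate 1 over replicate 2 against mean level (CPM, log axis) for the 411 genes tested and the mir-29 genes, whose bars are exact 95% intervals of the read counts. Mir29a at -0.32 and Mir29c at -0.17 lie within the cloud of genes at their level, and the wide bars of Mir29b-1 and Mir29b-2 rest on 9 to 21 reads per library.

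The genes with the most similar levels over the 2 libraries were taken as those next above and below each mir-29 gene in mean CPM. Around Mir29a these were Mir448 (219 CPM in replicate 1 and 227 in replicate 2), Mir494 (263 and 180), Mir148b (228 and 211) and Mir302d (246 and 192), whose mean log2 levels differed from its own by at most 0.02. Around Mir29c they were Mir96 (178 CPM in replicate 1 and 218 in replicate 2), Mir542 (212 and 180), Mir32 (203 and 174) and Mir20b (228 and 132). Of these 8 genes, Mir448 and Mir96 had the lower level in replicate 1, as the mir-29 genes did. Around Mir29b-2 stood Mir7026, Mir146b, and Mir1191 and Mir6935, both with the same CPM as Mir29b-2 in each library. Around Mir29b-1 stood Mir511, Mir194-1, Mir6988 and Mir292, all between 2.45 and 3.01 CPM in both libraries.

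Lists of miRNA genes of neurons, progenitors and glia, chosen with earlier results of these data known, place the family among miRNAs of the same tissue. Beside the counts below, 47.4% of all 411 genes passed the exact binomial test, 120 genes higher and 75 lower in replicate 1. The let-7 genes, which accumulate as cells differentiate, had a median of 3872 CPM over 10 detected genes, led by Mirlet7g, of 12 in the list, and all 10 passed the exact binomial test with a lower level in replicate 1. Their median log2 ratio was -0.26, against -0.32 over the 3 detected mir-29 genes. The neuronal maturation list, which holds mir-124, mir-9 and Mir137, had 18 of 20 genes detected at a median of 527 CPM, with 8 lower and 5 higher in replicate 1 and a median ratio of -0.16. Its summed level was nevertheless the higher in replicate 1, at 33653 CPM against 32375 CPM in replicate 2. Levels in the let-7 and neuronal lists and in the Mir17 list below, like those of mir-29b, are uncertain where copies share a mature arm. Some let-7 genes also lie close together, such as Mirlet7a-1 and Mirlet7d with 2064 bases between them, and are not separate observations. In the list of Mir17 and its cluster relatives, miRNAs of progenitor cells, 13 of 15 genes were higher and 0 lower in replicate 1. Its median ratio was 0.45, and genes of 1 cluster are not separate observations. The summed level of that list was 53429 CPM in replicate 1 and 41643 CPM in replicate 2, and of the let-7 list 119495 and 132722 CPM. At the fixed BCV of 0.2, 0 genes of these 3 lists passed edgeR's exact test, against 1.46% of all 411 genes. The part of these lists in the mir-29 values was not tested.

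Glial and non-neural lists were read as well, since mir-29 is also a miRNA of astrocytes and connective tissue. Of 9 genes known from glia, such as Mir21a, Mir23b and Mir26b, 3 were lower and 1 higher in replicate 1. Their sum was 34704 CPM in replicate 1 and 35384 CPM in replicate 2. It rested mostly on Mir26b (mean 16696 CPM), Mir23b (9662) and Mir23a (4854), against a list median of 70.0 CPM, so it does not measure glia. The share of calls in this list was near the 47.4% of all genes. In the oligodendrocyte list 2 of 3 genes were lower and 1 higher, in the blood list 2 of 5 were lower and 0 higher, and in the vessel and mesenchyme list 1 of 7 detected genes was lower and 2 were higher in replicate 1. With 3 to 7 genes in a list, nothing is read from these counts beside that background. The summed levels in replicate 1 and replicate 2 were 1524 and 1700 CPM for oligodendrocytes, 436 and 514 CPM for blood, and 34022 and 35311 CPM for vessels and mesenchyme. The epithelial list was the widest apart, with all 7 genes higher in replicate 1, against 120 of all 411 genes tested. Its sums were 1327 CPM in replicate 1 and 689 CPM in replicate 2. At the fixed BCV of 0.2, 5 of the epithelial genes passed edgeR's exact test and 0 genes of the other lists did. Among all 411 genes, 6 passed it (1.46%). No list member analysed here was at 0 reads in both libraries, and their part in the mir-29 levels was not tested either.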

How the data were processed

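MicroRNA-seq counts of 2 midbrain libraries were used as the authors deposited them, as raw counts of reads per miRNA gene on mm10 with GENCODE M4, per the text files that accompany them. No source used here gave the aligner, the counter or the rule for reads at several places. Rows that name no gene held 54.9% and 55.8% of the reads of replicates 1 and 2 and stayed out of library sizes and tests. Symbols came from GENCODE M21 by identifier (1894 of 1973 genes matched), and all 4 mir-29 genes matched hairpins in the RefSeq table (GRCm38.p6).

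CPM was computed over the summed sense counts of each library. Log2 ratios had 0.5 reads added to each count. Each gene with 10 or more reads in both libraries was compared by a two-sided exact binomial test, Benjamini-Hochberg adjusted over all 411 such genes at 0.05. A run of the test on simulated counts had counting error alone, which the test assumes. It therefore says nothing of the test where pools differ by more than counting error. A quasi-likelihood fit had no residual degrees of freedom for a difference between single libraries. A chi-square of 85.8 per degree of freedom showed the tables not to be copies of 1 library. The labels call the libraries biological replicates, and p-values measure only the difference between these 2.

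Members, lists and tests were chosen with earlier results of these data known. The text names the mir-29 genes, the pair of genes on either side of each in mean CPM, and leading members of the lists. Alternatives changed the scaling (TMM, median-of-ratios), the read minimum, the strand, the reads added and the test. Tools were edgeR 4.0.16, DESeq2 1.42.0 (size factors only), R 4.3.3, Python 3.11.15, numpy 2.4.6, scipy 1.17.1, pandas 2.3.3 and matplotlib 3.10.9.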

Additional observations from a re-analysis of the deposited data

Results flagged for a closer look

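Reads that mapped to several places were outside every comparison above. They numbered 4816290 in replicate 1 and 4391928 in replicate 2, which is 0.783 and 0.827 times the sense-strand reads on miRNA genes. They were picked out because they are a large signal that is not listed by gene, and a full-length miR-29b-3p read would align to 2 genes. How many of them came from the mir-29b hairpins was not tested.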

How the results depend on the processing

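Of 86 values recomputed under the alternatives, 73 counted as unchanged. A log2 ratio counted so if it kept its direction and its side of the threshold, and an untested ratio of Mir29b-1 by direction alone. Counts of called genes had to stay near 195, and all other values had to move by less than 1 SD. No log2 ratio changed sign. Part of that tally was fixed in advance. With 2 libraries, leaving 1 out always moves a level, family share or cluster gap by less than its SD. The cluster gaps are the same with either-strand counts, and edgeR's test reuses the main ratios. The ratios with 5 reads added reuse the p-values of the main exact binomial test, so their side of the threshold could not change. The tally is therefore no measure of stability. Scaled to all reads in the tables in place of those on miRNA genes, Mir29a stood at 98.5 CPM, Mir29c at 86.1 CPM, Mir29b-2 at 1.35 CPM and Mir29b-1 at 1.20 CPM, and the family at 0.0187% of reads; the denominator is larger by construction. Under the exact test of edgeR, with the BCV set to 0.2 or to the estimated common value, the ratios of Mir29a (-0.32) and Mir29c (-0.17) no longer passed (adjusted p = 1 for both), and 6 genes were called in place of 195 at each BCV, with 8 and 11 genes at an unadjusted p under 0.05. Each side held 1 library and the BCV was set by hand or estimated from the same differences, so these losses say nothing about stability. Over the other alternatives the adjusted p of the exact binomial test ran from 9.47e-10 to 2.37e-07 for Mir29a and from 0.00158 to 0.0288 for Mir29c. With no read minimum Mir29b-1 entered the test with an adjusted p of 0.039 by the exact binomial test, and with a minimum of 50 reads Mir29b-2 had no value. Rank 184 of Mir29c became 193 with either-strand counts and 177 without replicate 1. Chosen after seeing the data, partners within 1000 bases gave a median difference of -2.64 over 14 other pairs, and shared-arm genes at 1 CPM or more gave -3.03 over 18. At 9 to 21 reads per library, depth limits what can be said of the mir-29b genes. No paired analysis was possible because the libraries are replicates of 1 group.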
